A study of Homo sapiens with 9 samples.

Results

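The 34 genes described here make fatty acids from acetyl-CoA, lengthen and desaturate them, join them to CoA, build them into glycerolipids and store or release them from lipid droplets. They were chosen by gene symbol from this pathway, and every probe annotated with such a symbol was taken. Of the 34, 33 had a probe in the probe name table, against 20046 named genes on the array, and 65 of the 47322 probes with a value belonged to them. ACSL3 had no named probe and was not analysed here. To count as measured, a probe had to be brighter than all 92 external control probes on 3 or more of the 9 arrays, which held for 48 of the 65. These stood for 30 members, of which 14 had several passing probes. ACACB, the mitochondrial acetyl-CoA carboxylase, and DGAT2, which closes triglyceride synthesis, were above background on 0 arrays, and PNPLA3, a lipid droplet acylhydrolase, on 2. Of the 30, 27 were above background on all 9 arrays. MLXIPL and FADS2 were on 5 and ACSL5 on 7.

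Total RNA came from H3122 cells, a human lung adenocarcinoma line that carries the EML4-ALK fusion E13;A20 and that is grown in culture. Parental cells are sensitive to inhibitors of the ALK kinase. PF1066R cells (also called H3122 CR) were derived by experiment to resist PF1066, which is crizotinib, and X376R cells (H3122 XR) to resist X-376, another ALK inhibitor. All 3 are isogenic and carry the fusion, and each was measured on 3 Illumina bead arrays. Each inhibitor is represented by 1 resistant line. The sources used here do not say whether a line is a single clone or whether inhibitor was present at lysis. No label states that samples of a line came from separate cultures, so p-values cover the spread of these samples alone, and it may be technical. In RNA from whole cultures, fewer cells that express a gene and less of its RNA per cell cannot be told apart.

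Fatty acid synthesis starts from cytosolic acetyl-CoA, which ATP citrate lyase makes from citrate and acetyl-CoA synthetase from acetate. Acetyl-CoA carboxylase and fatty acid synthase turn it into palmitate, and elongases and desaturases then lengthen the chain and set double bonds. Many of these genes are known targets of SREBP-1, the transcription factor encoded by SREBF1. SREBP-1 is held in the endoplasmic reticulum by INSIG proteins until it is carried to the Golgi and cleaved, so its messenger RNA level is not a measure of its activity. Lung adenocarcinoma cells, like other tumour cells, are known to make much of their fatty acid themselves.

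The promoters of SREBF1, SCD and ACSS2 and 1 of the 5 of ACSL1 are shown first, because the results below turn on these members. PNPLA2 and the other members are given by their counts. The promoters were taken from RefSeq (GRCh38.p14), which held 46 promoters for 27 of the 34 members. Each runs from 250 bases before the transcription start to 50 after it, 5′ to 3′ on the gene's strand. Capitals mark every match, on either strand, to 4 motifs: TCACNCCAC (the core of a sterol regulatory element), the E-box CACGTG, the CCAAT box CCAAT and the GC box GGGCGG.
SREBF1, chr17:17836937-17837236, minus strand: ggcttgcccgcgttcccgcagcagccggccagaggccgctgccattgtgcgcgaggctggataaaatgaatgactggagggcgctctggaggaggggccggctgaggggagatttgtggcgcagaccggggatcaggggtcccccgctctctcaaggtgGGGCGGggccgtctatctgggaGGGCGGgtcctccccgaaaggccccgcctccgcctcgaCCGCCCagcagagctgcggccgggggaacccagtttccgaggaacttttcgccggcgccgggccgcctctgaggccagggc
SCD, chr10:100346983-100347282, plus strand: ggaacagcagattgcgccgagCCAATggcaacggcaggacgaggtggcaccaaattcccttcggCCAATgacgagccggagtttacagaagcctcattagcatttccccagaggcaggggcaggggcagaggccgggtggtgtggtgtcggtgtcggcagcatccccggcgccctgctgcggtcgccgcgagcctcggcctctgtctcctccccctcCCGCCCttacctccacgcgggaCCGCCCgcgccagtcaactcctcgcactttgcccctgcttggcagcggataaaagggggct
ACSS2, upstream start, chr20:34874739-34875038, plus strand: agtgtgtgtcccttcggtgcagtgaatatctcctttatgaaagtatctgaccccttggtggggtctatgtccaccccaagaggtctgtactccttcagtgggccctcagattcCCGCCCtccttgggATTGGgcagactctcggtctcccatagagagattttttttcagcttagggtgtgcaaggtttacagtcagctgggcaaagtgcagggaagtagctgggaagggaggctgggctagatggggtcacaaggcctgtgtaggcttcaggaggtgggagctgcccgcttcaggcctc
ACSS2, downstream start, chr20:34876362-34876661, plus strand: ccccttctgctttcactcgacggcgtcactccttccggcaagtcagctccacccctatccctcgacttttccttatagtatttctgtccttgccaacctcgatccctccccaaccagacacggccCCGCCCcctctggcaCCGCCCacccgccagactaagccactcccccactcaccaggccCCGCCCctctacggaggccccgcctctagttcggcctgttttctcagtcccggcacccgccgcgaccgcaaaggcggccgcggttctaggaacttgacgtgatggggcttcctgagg
ACSL1, a start with a match to the sterol element core, chr4:184805504-184805803, minus strand: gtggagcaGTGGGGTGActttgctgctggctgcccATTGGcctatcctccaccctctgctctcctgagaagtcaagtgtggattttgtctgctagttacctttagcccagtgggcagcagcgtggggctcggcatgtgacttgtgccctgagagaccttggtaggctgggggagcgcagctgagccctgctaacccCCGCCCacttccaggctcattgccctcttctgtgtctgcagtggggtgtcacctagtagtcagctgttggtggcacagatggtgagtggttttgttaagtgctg
The SREBF1 window, the only one listed for this gene, held 3 GC boxes and no match to the other motifs. Any other start of SREBF1 was not read. The SCD window held 2 CCAAT boxes and 2 GC boxes. In ACSS2, the upstream window held a CCAAT box, read on the minus strand as ATTGG, and a GC box, and the downstream window 3 GC boxes. The ACSL1 window shown held the sterol element core, read on the minus strand as GTGGGGTGA, a CCAAT box as ATTGG and a GC box. It was chosen for that core, which no other of the 5 ACSL1 windows held. Over all members, the core TCACNCCAC was found in 2 of the 46 promoters, of ACSL1 and PNPLA2, against 1.13% of the 35116 promoters in the table. An E-box was found in 3 (ELOVL5, LPIN2 and PLIN2) against 7.26%, a CCAAT box in 20 against 34.6% and a GC box in 33 against 45.0%. No motif lies wholly within another. A match is a string of letters in this window and not a bound site, and several promoters belong to 1 gene.

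On average the arrays of the resistant lines were dimmer, although PF1066R replicate 1 was as bright as Parental replicate 1. The mean signal over all probes came to 254 ± 37.9 units (SD, 3 arrays) for Parental, to 201 ± 30.3 for PF1066R and to 173 ± 9.09 for X376R, and after normalization 13769 genes were tested. Values below are normalized log2 signals with an offset of 50 added before the log, so folds of dim genes are understated. Epithelial and lung adenocarcinoma markers were above background for 8 to 10 of 10 genes on every array, with a summed signal of 9882 to 12270 units. Fibroblast markers were above background for 2 to 6 of 10 genes, and their summed signal was 663 to 693 units in Parental, 707 to 724 in PF1066R and 809 to 862 in X376R, with PDGFRB and THY1 above background on 0 arrays. Adipocyte markers were above background for 1 to 5 of 9 genes and summed to 705 to 778 units, with CD36 and FABP4 above background on 0 arrays. Immune cell markers were above background for 2 to 5 of 7 genes and summed to 557 to 658 units, with CD3E above background on 0 arrays. Endothelial markers were above background for 1 to 3 of 5 genes, with KDR above background on 0 arrays. Their summed signal was 312 to 329 units in Parental, 389 to 467 in PF1066R and 533 to 571 in X376R. Of 3 tested, 1 was higher than in Parental in each line (limma, adjusted p under 0.05), against 9.08% and 14.0% of all genes. The largest endothelial marker change was 1.41 on the log2 scale in PF1066R and 2.25 in X376R. The part of these genes and of array brightness in the results below was not tested, beyond the fit with brightness as a covariate.

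Under quantile normalization the synthesis, desaturation and acyl-CoA synthetase genes were mostly higher in PF1066R than in Parental, led by ACSS2, SCD and ACSL1, while PNPLA2 and FABP5 were lower. In X376R the members were split: ACSS2, ACSL1 and ACSL4 were again higher, but SCD, SREBF1 and LPIN1 were lower than in Parental. Of the 30 members, 13 rose and 2 fell in PF1066R, with an adjusted p under 0.05 in limma, where 18.4% of all genes were called, 9.08% higher and 9.36% lower. In X376R, 8 rose and 6 fell, where 28.1% of all genes were called, 14.0% higher and 14.2% lower. As shares, 50% and 46.7% of the members were called. The 3 arrays of a line did not overlap those of Parental for 18 members in PF1066R and 16 in X376R, against 33.7% and 38.8% of all genes. The median member changed by 0.26 on the log2 scale in PF1066R and by 0.03 in X376R, beside -0.01 for all genes in each. The number of higher calls depends on the scaling: when arrays were centred on their medians and not quantile-normalized, 3 members rose and 3 fell in PF1066R, where 1.56% of all genes were higher and 16.2% lower. In X376R 3 then rose and 13 fell, where 2.82% of all genes were higher and 30.5% lower. The median change of all genes under that centring was -0.12 in PF1066R and -0.19 in X376R, and its counts for each role and list below stand beside these shares. With array brightness as a covariate, 6 rose and 2 fell in PF1066R (4.55% and 4.54% of all genes), and 3 rose and 5 fell in X376R (5.1% and 5% of all genes). Calls that held under all 11 alternatives and without each of the 9 arrays were ACSL1, ACSS2 and SCD higher and FABP5 and PNPLA2 lower in PF1066R. In X376R they were ACSL1, ACSL4 and ACSS2 higher and FABP5, LPIN1, PNPLA2, SCD and SREBF1 lower. Both comparisons use the same 3 Parental arrays.

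**Figure D1:**
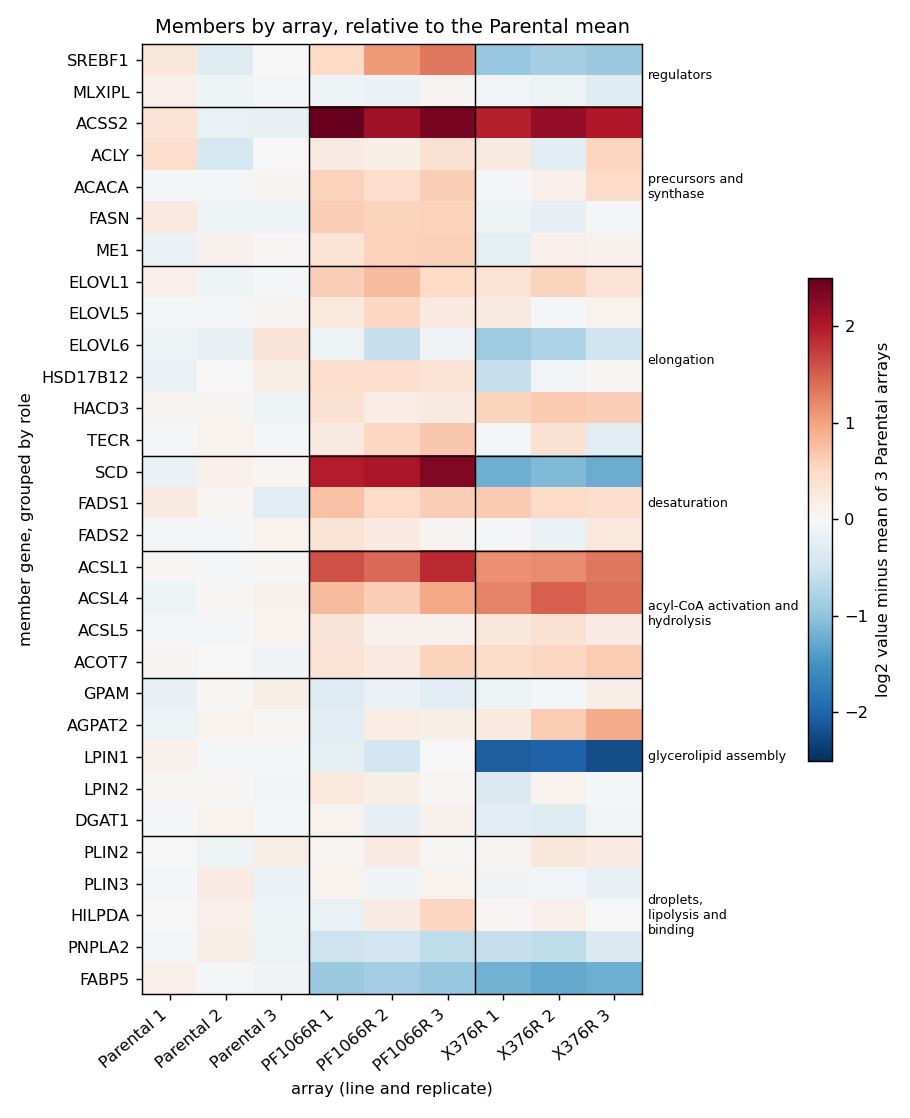
Colour shows each member's log2 signal on each array minus its mean on the 3 Parental arrays, with rows for the 30 tested members in order of role and columns for the 9 arrays. SCD is higher on all 3 PF1066R arrays and lower on all 3 X376R arrays, and ACSS2 and ACSL1 are higher on all 6 resistant arrays (SCD, ACSS2 and ACSL1 are also the 3 members that rose in PF1066R with each array centred on its median).

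Among the regulators, SREBF1 moved in opposite directions in the resistant lines. Its log2 signal was 8.55, 7.97 and 8.29 on the Parental arrays, 8.76, 9.34 and 9.59 on the PF1066R arrays and 7.33, 7.44 and 7.35 on the X376R arrays. The 3 lines did not overlap, with PF1066R highest and X376R lowest. SREBF1 rose by 0.96 ± 0.18 (SE) in PF1066R, 1.95-fold, with an adjusted p of 0.000925. In X376R it changed by -0.89 ± 0.18, or 1.86-fold lower, with an adjusted p of 0.000905. The PF1066R call was lost with each array centred on its median (0.60, adjusted p = 0.0635). A dimmer SREBF1 probe changed by 0.34 and -0.37, past the threshold in neither line, where 13% and 20.2% of all passing probes were called. MLXIPL, which encodes the carbohydrate response element binding protein, lay close to background at 5.90 to 6.32 over the 9 arrays and passed the threshold nowhere.

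Of the 5 tested genes that supply acetyl-CoA, malonyl-CoA and NADPH or build palmitate, 4 rose in PF1066R and 1 in X376R, and with each array centred on its median 1 rose in PF1066R, while 1 rose and 2 fell in X376R. ACSS2, the cytosolic acetyl-CoA synthetase, gave a log2 signal of 7.70, 7.20 and 7.18 on the Parental arrays, 10.03, 9.48 and 9.74 on PF1066R and 9.30, 9.56 and 9.36 on X376R. All 6 resistant arrays were above the 3 Parental ones. It rose 5.23-fold in PF1066R (log2 2.39 ± 0.15, adjusted p = 1.53e-08) and 4.13-fold in X376R (2.05 ± 0.15, adjusted p = 2.94e-08), the largest rise of any member in each line. A further ACSS2 probe gave 2.54 and 2.08, and the other gave 0.79 and 0.25, of which the last did not pass the threshold. FASN, fatty acid synthase, was 9.51, 9.13 and 9.14 on Parental, 9.87, 9.81 and 9.83 on PF1066R and 9.13, 9.06 and 9.21 on X376R. The PF1066R arrays stood above those of the other lines, which overlapped each other. FASN rose 1.49-fold in PF1066R (0.58 ± 0.12, adjusted p = 0.00209) and changed by -0.13 ± 0.12 in X376R (adjusted p = 0.475, 95% interval -0.38 to 0.12).

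ACACA, the cytosolic acetyl-CoA carboxylase that makes malonyl-CoA, was 8.10, 8.12 and 8.20 on Parental, 8.71, 8.58 and 8.76 on PF1066R and 8.08, 8.27 and 8.63 on X376R. The X376R arrays ranged from the Parental level to the PF1066R level. ACACA rose 1.46-fold in PF1066R (0.54 ± 0.13, adjusted p = 0.00635), but its other passing probe changed by 0.09. The X376R value was 0.19 ± 0.13 (adjusted p = 0.331). ME1, malic enzyme, which yields NADPH, read 8.77, 9.03 and 8.96 on Parental, 9.26, 9.49 and 9.51 on PF1066R and 8.68, 9.06 and 9.03 on X376R. Again PF1066R alone stood apart, with a rise of 0.50 ± 0.13 (1.41-fold, adjusted p = 0.00937), while X376R gave 0.00 ± 0.13. Without Parental replicate 1 the ME1 call in PF1066R was lost (0.43, adjusted p = 0.0506). ACLY, ATP citrate lyase, spanned 7.69 to 8.56 on the Parental arrays alone and gave 0.25 in PF1066R and 0.17 in X376R, neither past the threshold. In PF1066R the calls of FASN, ACACA and ME1 were lost with each array centred on its median, at 0.22, 0.16 and 0.13. They were also lost with brightness as a covariate, at 0.53, 0.57 and 0.41, so there the values stayed close to those given above and their p-values were larger.

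The widest span of any member was in SCD, the desaturase that makes oleate and palmitoleate. Its log2 signal was 8.51, 8.80 and 8.74 on the Parental arrays, 10.65, 10.73 and 10.99 on PF1066R and 7.46, 7.59 and 7.45 on X376R. The lines did not overlap, and the spread within a line was small beside the gaps between them. SCD rose 4.30-fold in PF1066R (2.11 ± 0.12, adjusted p = 3.82e-09) and was 2.28-fold lower in X376R (-1.19 ± 0.12, adjusted p = 1.06e-06). FADS1, the delta-5 desaturase of polyunsaturated fatty acids, was 7.19, 7.01 and 6.70 on Parental, 7.69, 7.45 and 7.59 on PF1066R and 7.61, 7.45 and 7.41 on X376R. Unlike SCD it was above Parental on all 6 resistant arrays, with rises of 0.61 ± 0.13 in PF1066R (1.53-fold, adjusted p = 0.0027) and 0.52 ± 0.13 in X376R (1.44-fold, adjusted p = 0.00476). Centred on array medians these FADS1 values were 0.36 and 0.12 and passed in neither line. FADS2, the delta-6 desaturase, lay near background at 5.90 to 6.40 and gave 0.21 and 0.02, neither past the threshold.

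**Figure D2:**
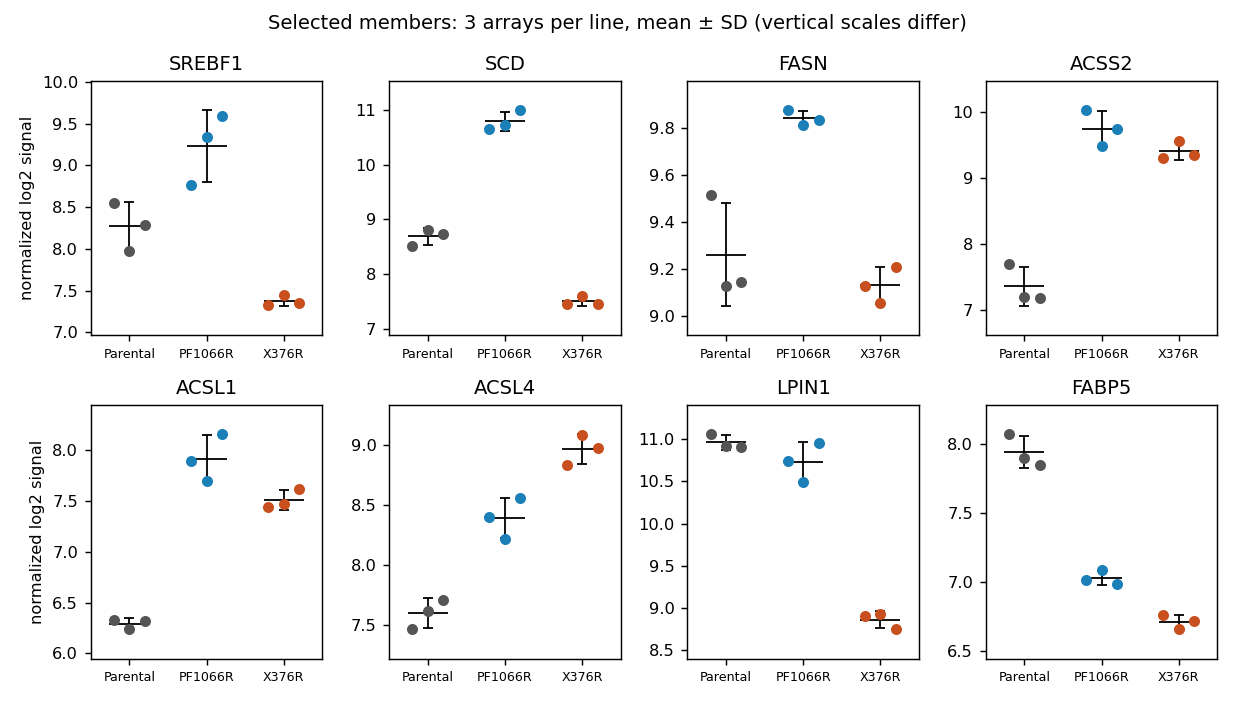
Each panel plots the log2 signal of a selected member on the 3 arrays of each line as points, with the mean and SD (n = 3), and the vertical scales differ between panels. SREBF1 and SCD run from X376R at the bottom to PF1066R at the top, whereas ACSS2 and ACSL1 are high in both resistant lines and LPIN1 is low in X376R.

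Elongation of fatty acids past palmitate is run by a condensing ELOVL enzyme and by HSD17B12, HACD3 and TECR, which carry out the reduction, dehydration and last reduction of each cycle. Of these 6 genes, 3 rose in PF1066R, and 2 rose and 1 fell in X376R, but with each array centred on its median 0 were called in PF1066R and 3 fell in X376R. ELOVL1, which lengthens saturated and very long chains, was 6.90, 6.68 and 6.76 on Parental, 7.40, 7.57 and 7.29 on PF1066R and 7.13, 7.34 and 7.14 on X376R. Every resistant array exceeded every Parental array, with rises of 0.64 ± 0.11 (1.56-fold, adjusted p = 0.000813) and 0.42 ± 0.11 (1.34-fold, adjusted p = 0.0103). Without X376R replicate 2 the latter was 0.35 (adjusted p = 0.0501). ELOVL6, which extends palmitate to stearate, was 7.13, 7.08 and 7.58 on Parental, 7.13, 6.68 and 7.17 on PF1066R and 6.37, 6.50 and 6.76 on X376R. ELOVL6 fell in X376R by 0.72 ± 0.16 (1.64-fold lower, adjusted p = 0.00202), with a value of -0.26, not called, with brightness as a covariate, and gave -0.27 in PF1066R. HACD3 rose in X376R by 0.61 ± 0.11 (1.52-fold, adjusted p = 0.000334), where its arrays read 10.63, 10.72 and 10.69 against 10.14, 10.13 and 9.95 in Parental. Its 2 other passing probes gave -0.04 and 0.19 there, and the HACD3 value was -0.07 with arrays centred on their medians. ELOVL5, which lengthens polyunsaturated chains, and TECR passed narrowly in PF1066R (0.34 and 0.47, adjusted p = 0.0475 and 0.0389). ELOVL5 lost its call when any of the 3 Parental or 3 PF1066R arrays was left out, at 0.25 to 0.38, and TECR under 5 of the 9 left-out arrays. HSD17B12 gave 0.40 in PF1066R and -0.20 in X376R, neither past the threshold.

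Long-chain acyl-CoA synthetases join free fatty acids to CoA, the form in which they enter lipids or mitochondria, and ACOT7 reverses that step. Of the 4 tested genes of this kind 3 rose in each resistant line, and with each array centred on its median 1 rose in PF1066R and 2 in X376R. ACSL1 was 6.32, 6.24 and 6.32 on the Parental arrays, 7.89, 7.70 and 8.16 on PF1066R and 7.44, 7.47 and 7.62 on X376R. The Parental arrays lay close together and far below the rest. The rise was 3.08-fold in PF1066R (1.62 ± 0.12, adjusted p = 8.34e-08) and 2.32-fold in X376R (1.22 ± 0.12, adjusted p = 8.77e-07). ACSL4, which prefers arachidonate and other polyunsaturated chains, was 7.46, 7.62 and 7.71 on Parental, 8.40, 8.22 and 8.56 on PF1066R and 8.84, 9.09 and 8.98 on X376R. Here the order of the resistant lines was the reverse of ACSL1, with X376R highest. ACSL4 rose by 0.79 ± 0.12 in PF1066R (adjusted p = 0.000161) and by 1.37 ± 0.12 in X376R (2.58-fold, adjusted p = 1.69e-07), while a dimmer probe gave 0.26, not past the threshold, and 0.43. The ACSL4 call in PF1066R was lost with each array centred on its median (0.44, adjusted p = 0.153). ACOT7 rose by 0.38 ± 0.11 in PF1066R (adjusted p = 0.0228) and by 0.54 ± 0.11 in X376R (1.45-fold, adjusted p = 0.00141). Its other passing probe gave -0.06 and 0.29, called in neither line, and the mean of its passing probes gave 0.16 in PF1066R, not called. The ACOT7 call in PF1066R was also lost without Parental replicate 2 or 3 or without PF1066R replicate 1 or 3, at 0.30 to 0.40. In X376R its call was lost under both centrings on medians and with brightness as a covariate, and its lowest value over the alternatives was 0.03. ACSL5 stayed near background at 6.02 to 6.46 and was not called.

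The enzymes that assemble glycerolipids showed a single large change. LPIN1, the phosphatidate phosphatase lipin-1 that also acts as a transcriptional coregulator, was 11.06, 10.91 and 10.91 on the Parental arrays, 10.74, 10.49 and 10.96 on PF1066R and 8.91, 8.93 and 8.75 on X376R. The X376R arrays lay far below the other 6. LPIN1 was 4.29-fold lower in X376R (-2.10 ± 0.12, adjusted p = 1.37e-09), while PF1066R gave -0.23 ± 0.12 (adjusted p = 0.231). AGPAT2, which acylates lysophosphatidate, was 7.52, 7.75 and 7.70 on Parental, 7.36, 7.84 and 7.80 on PF1066R and 7.91, 8.28 and 8.59 on X376R. Its X376R arrays were above the rest but spread widely, and it rose there by 0.61 ± 0.16 (1.52-fold, adjusted p = 0.00823), a call lost with each array centred on its median (0.04). GPAM, which starts glycerolipid synthesis, LPIN2 and DGAT1 passed in neither line under the main setting. Centred on array medians, 1 of the 5 genes fell in PF1066R (GPAM, -0.50) and 3 in X376R (LPIN1 with LPIN2 at -0.66 and DGAT1 at -0.47).

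The lipase PNPLA2 and the carrier FABP5 fell in both resistant lines, and none of the 3 tested genes of lipid droplet coating and its control was called in limma at an adjusted p under 0.05. PNPLA2, adipose triglyceride lipase, was 7.95, 8.15 and 7.87 on Parental, 7.47, 7.50 and 7.35 on PF1066R and 7.40, 7.35 and 7.62 on X376R. All 6 resistant arrays lay below the Parental arrays, with changes of -0.55 ± 0.11 (1.46-fold lower, adjusted p = 0.00272) and -0.53 ± 0.11 (1.44-fold lower, adjusted p = 0.002). FABP5, a cytosolic fatty acid binding protein, was 8.07, 7.90 and 7.85 on Parental, 7.01, 7.09 and 6.99 on PF1066R and 6.76, 6.65 and 6.71 on X376R. The lines did not overlap. FABP5 was 1.88-fold lower in PF1066R (-0.91 ± 0.10, adjusted p = 1.08e-05) and 2.35-fold lower in X376R (-1.23 ± 0.10, adjusted p = 1.28e-07). Its other passing probe gave -0.17 and -0.29, past the threshold in neither line, and FABP5 has near-identical processed copies in the genome, so its level is uncertain. PLIN2 and PLIN3, which coat lipid droplets, and HILPDA, which inhibits PNPLA2, were not called. Their changes ran from -0.12 to 0.19, with interval bounds from -0.36 to 0.50, and PLIN3 fell by 0.77 in X376R with each array centred on its median.

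**Figure D3:**
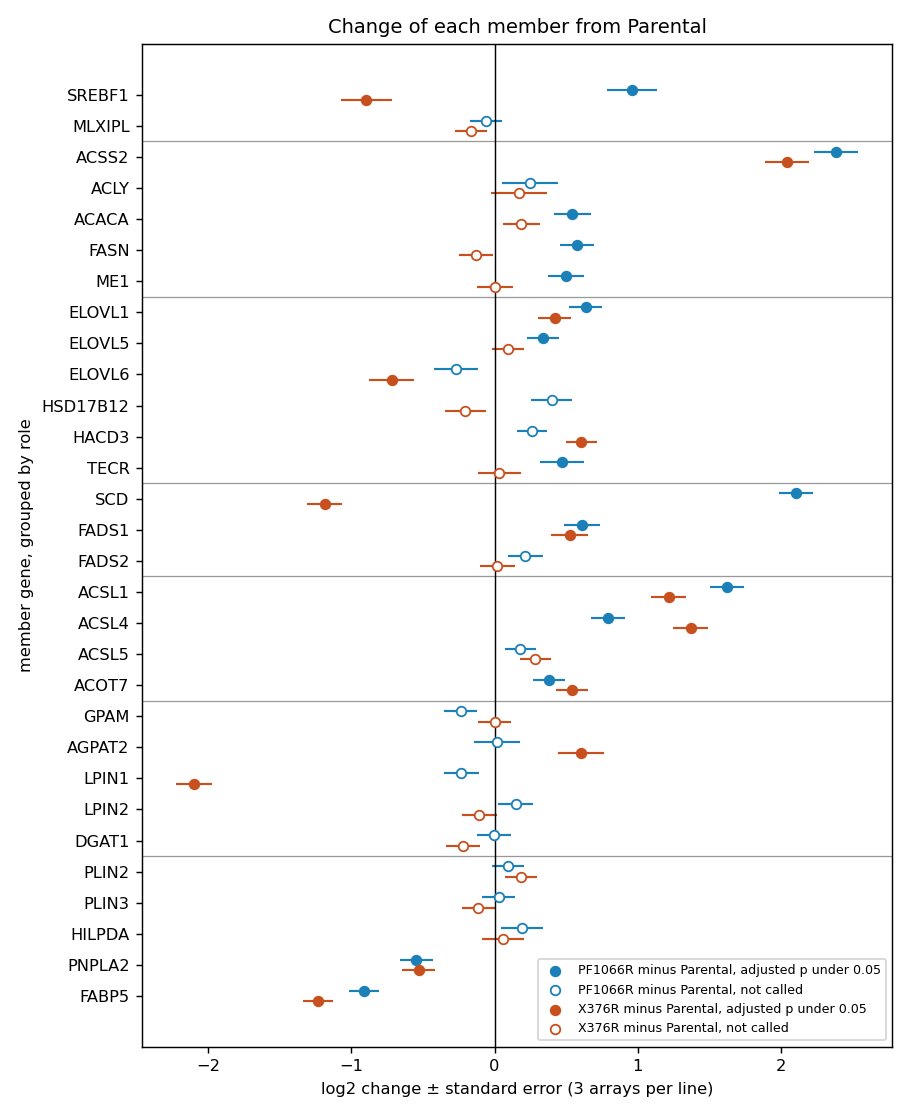
Points give each tested member's log2 change from Parental in PF1066R and in X376R with its standard error, ordered by role, and filled points passed the threshold. ACSS2, ACSL1 and ACSL4 lie to the right of 0 in both lines, SCD and SREBF1 on opposite sides, and LPIN1 lies far to the left in X376R alone; centred on array medians, the calls in PF1066R fall from 15 to 6.

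The resistant lines were then set against each other. Of the 30 members, 3 were higher and 8 lower in X376R than in PF1066R, where 16.1% of all genes were called, 7.97% higher and 8.10% lower, and the median member differed by -0.22 against 0.00 for all genes. The arrays of the lines did not overlap for 13 members, against 29.1% of all genes. Centred on array medians 0 were higher and 7 lower. Without PF1066R replicate 3, or without X376R replicate 1, 7 of the 11 calls were made. SCD was 9.80-fold lower in X376R (-3.29 ± 0.12, adjusted p = 4.98e-12), the largest gap of any member between these lines. LPIN1 was 3.65-fold lower (-1.87 ± 0.12, adjusted p = 8.75e-09) and SREBF1 3.62-fold lower (-1.86 ± 0.18, adjusted p = 8.13e-07). Both probes of SREBF1 agreed in sign and call here, with the dimmer at -0.71, where 11.3% of all passing probes were called. FASN differed by -0.71 ± 0.12 (1.63-fold lower, adjusted p = 0.000367) and HSD17B12 by -0.60 ± 0.14 (1.52-fold lower, adjusted p = 0.00682), and its further probe gave -0.61. These 5 calls held under all 11 alternatives and without each of the 9 arrays.

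The 6 remaining calls rested on fewer settings. ME1 was 1.41-fold lower in X376R (-0.50 ± 0.13, adjusted p = 0.0109), a call lost without PF1066R replicate 3 (-0.45) or X376R replicate 1 (-0.38). ACSL1 was 1.33-fold lower (-0.41 ± 0.12, adjusted p = 0.0283) and lost its call without PF1066R replicate 1 or 3 or X376R replicate 1 or 2, at -0.42 to -0.29. AGPAT2 was 1.51-fold higher (0.59 ± 0.16, adjusted p = 0.017), and 0.44 without PF1066R replicate 1 or 0.43 without X376R replicate 3, where it was not called. Its other passing probes gave 0.41, not called, and 0.57, called higher. With the external controls used as negative controls in background correction, the ME1 and ACSL1 calls were lost. With each array centred on its median, and with brightness as a covariate, the ACSL1 and AGPAT2 calls were lost. ACSL4 was 1.49-fold higher (0.57 ± 0.12, adjusted p = 0.00264) and, among the settings, lost its call only with each array centred on its median (0.35). Its dimmer probe gave 0.17 (adjusted p = 0.486), not called. HACD3 (0.34, adjusted p = 0.0353) and FABP5 (-0.32, adjusted p = 0.0454) were lost when single arrays were left out, HACD3 under 5 of the 9 and FABP5 under 8. Both were also lost with the mean of passing probes, 1 of 6 alternatives of the 11 that lost the HACD3 call and of 7 that lost the FABP5 call. Their other passing probes gave 0.05 and 0.16 for HACD3 and -0.12 for FABP5, none of them called. ACSS2, the member that rose most in each line, differed by -0.34 ± 0.15 between them (adjusted p = 0.161, 95% interval -0.67 to -0.02) by its brightest probe. The 2 other passing probes were called lower in X376R, at -0.46 (adjusted p = 0.0395) and -0.54 (adjusted p = 0.0101), as was the mean of the passing probes, at -0.45 (adjusted p = 0.0129).

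Other lists of lipid genes were written from pathway knowledge. Of 15 tested regulators of lipogenic transcription outside the members, 1 rose and 3 fell in PF1066R and 2 rose and 4 fell in X376R, and centred on array medians 1 rose and 3 fell, and 0 rose and 6 fell. INSIG1, which retains SREBP in the endoplasmic reticulum and is itself a known SREBP target, rose 5.89-fold in PF1066R (2.56 ± 0.13, adjusted p = 1.41e-09) and gave 0.26 ± 0.13 in X376R (adjusted p = 0.165). MID1IP1, which promotes the polymerisation of acetyl-CoA carboxylase, was lower in PF1066R (-0.65 ± 0.14) and X376R (-1.04 ± 0.14). PRKAA1, a catalytic subunit of AMP-activated kinase, was lower in X376R alone by the threshold (-0.80 ± 0.17, adjusted p = 0.00183), and lower than in PF1066R by 1.04 on the log2 scale (adjusted p = 0.000329). PPARG, the adipogenic nuclear receptor, was lower in each line (-0.85 ± 0.11 and -0.83 ± 0.11), at a signal above background on 2 of 3 PF1066R and 1 of 3 X376R arrays.

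Cholesterol synthesis, the other arm of SREBP-regulated lipid synthesis, also rose in PF1066R. Of its 17 tested genes 12 rose and 0 fell in PF1066R, 8 rose and 1 fell in X376R, and 0 were higher and 6 lower in X376R than in PF1066R. Centred on array medians these counts were 6 and 1, 2 and 1, and 0 and 5. MSMO1, a sterol demethylase, rose by 1.96 ± 0.12 in PF1066R and 0.99 ± 0.12 in X376R. ACAT2, the cytosolic thiolase, rose by 1.66 and 0.72, and HMGCS1, which makes HMG-CoA, by 1.49 and 0.64. LSS, lanosterol synthase, rose by 1.27 ± 0.11 and 1.30 ± 0.11, and differed by 0.03 between the lines. In X376R, MSMO1, ACAT2 and HMGCS1 thus rose under the main setting while SCD and SREBF1 fell.

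Further enzymes of fatty acid synthesis changed in both directions. Of 23 tested, 4 rose and 3 fell in PF1066R and 6 rose and 2 fell in X376R, while centred on array medians 1 rose and 4 fell, and 1 rose and 5 fell. Under the main setting 30.4% and 34.8% of the 23 were called, against 18.4% and 28.1% of all genes. IDH1, which yields cytosolic NADPH, rose 1.77-fold in PF1066R (0.82 ± 0.12, adjusted p = 0.000117) and 3.39-fold in X376R (1.76 ± 0.12, adjusted p = 7.65e-09). SLC25A1, the mitochondrial citrate exporter, rose by 0.86 and 0.76. SCD5, the other human stearoyl-CoA desaturase, rose by 0.60 and 0.59, so in X376R it moved opposite to SCD. ACOT2, a mitochondrial thioesterase with a near-identical neighbour ACOT1, was lower in each line (-0.64 and -0.52) and its level is uncertain for that reason.

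Among 15 other glycerolipid enzymes 1 rose and 2 fell in PF1066R, and 3 rose and 3 fell in X376R; centred on array medians 0 rose and 2 fell, and 1 rose and 5 fell. LPCAT3, which places polyunsaturated chains in phospholipids, rose by 0.89 ± 0.16 and 0.87 ± 0.16. LPCAT1, which reacylates lysophosphatidylcholine, rose 2.02-fold in X376R (1.01 ± 0.16, adjusted p = 0.000143) and gave 0.37 in PF1066R. AGPAT5 was lower in each line (-0.54 and -0.81), and PLPP1, a lipid phosphatase, rose in X376R (0.72 ± 0.10). Of 14 other lipid droplet and lipolysis genes 1 rose in PF1066R and 2 in X376R with 0 lower. These are 7.14% and 14.3% of the list, fewer than the 18.4% and 28.1% of all genes called. Centred on array medians 0 rose, 1 fell in PF1066R and 3 in X376R. The genes that rose under the main setting were AUP1, a lipid droplet protein (0.56 and 0.67), and, in X376R, MGLL, monoacylglycerol lipase (0.55 ± 0.11, adjusted p = 0.00112).

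**Figure D4:**
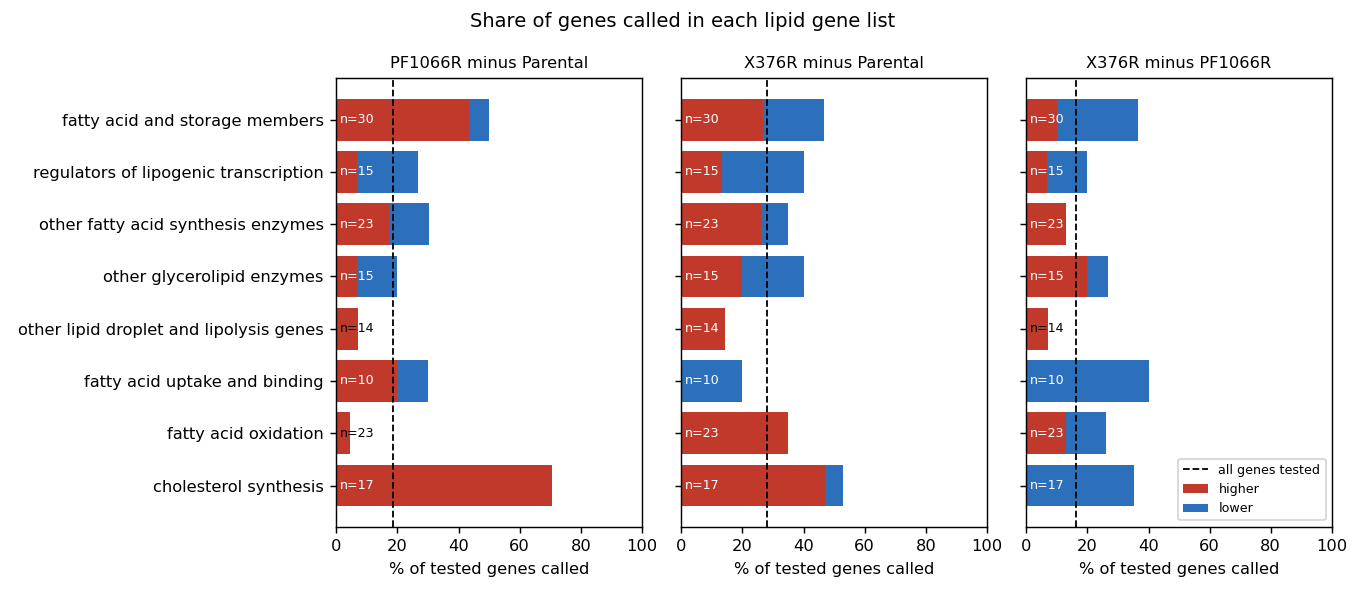
Bars give the percent of tested genes called higher or lower in each list and comparison, on an axis from 0 to 100%, and the dashed line gives the percent of all genes called. For PF1066R and X376R against Parental and X376R against PF1066R, in that order, the line stands at 18.4%, 28.1% and 16.1%. The members lie above it at 50%, 46.7% and 36.7%, and cholesterol synthesis at 70.6%, 52.9% and 35.3%. The regulators (26.7%, 40% and 20%) and the other glycerolipid enzymes (20%, 40% and 26.7%), of 15 genes each, exceed it by few genes. With each array centred on its median 3 members rose and 3 fell in PF1066R, where 1.56% of all genes were higher and 16.2% lower.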

How the data were processed

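The deposited table of signals gives, per the file headers, 1 intensity per probe for each of the 9 arrays, on a linear scale with a lowest value of 60.4. No source used here names the scanner software or how beads were summarized. The authors also deposited a table of log2 values that by their distribution are quantile-normalized, and the submitters' processing notes name R 2.15. In the log2 table the 3 replicate 1 columns depart from the distribution the other 6 share, so it served only as an alternative.

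Signals were background-corrected with normexp (offset 50), quantile-normalized and taken to log2 in limma 3.58.1 (R 4.3.3). The table has no detection p, and 92 probes without a name, whose IDs share a range, were treated as external controls, as known of this platform. A probe needed a signal above the highest of them on at least 3 of 9 arrays, which 26814 did. The passing probe with the highest mean stood for a gene. For 13769 genes, a linear model gave each line its mean over all 9 arrays, with moderated tests and Benjamini-Hochberg adjusted p under 0.05 over all genes. The median standard error was 0.12 (residual degrees of freedom 6, prior 10.6), and 3 arrays a line limit the precision. Arrays of a line correlated with r of 0.980 to 0.989.

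All members are named, with up to 4 genes of each other lipid list by size of change among those called. The members and lists were chosen with earlier results of these data known. The 11 alternatives and the left-out arrays are given in the closing section, and 1 alternative, centring on the median of the tested genes, was chosen after seeing the data. Probe sequences and members without a RefSeq promoter entry were not used here. Promoters were read with Python 3.11.15.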

Additional observations from a re-analysis of the deposited data

Results flagged for a closer look

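The changes from Parental differed between the resistant lines, of which there is 1 per inhibitor, for 11 of the 30 members. This is by the test of the difference itself, X376R minus PF1066R in limma at an adjusted p under 0.05, where 16.1% of all genes were called. Of the 11 calls, 5 held under all settings and left-out arrays, those of SCD, LPIN1, SREBF1, FASN and HSD17B12. On the log2 scale SCD differed by -3.29, LPIN1 by -1.87, SREBF1 by -1.86, FASN by -0.71, HSD17B12 by -0.60, ME1 by -0.50, ACSL1 by -0.41 and FABP5 by -0.32. ACSL4 differed by 0.57, AGPAT2 by 0.59 and HACD3 by 0.34. SCD and SREBF1 moved to opposite sides of Parental in the resistant lines. ACSL1 and ACSL4 were above Parental in both lines and FABP5 below it in both. For each of them the difference in amount was called under the main setting and lost under others. With 3 arrays a line, no line was searched for a single array apart from the rest.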

How the results depend on the processing

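Over all settings and left-out arrays, 1573 of 1791 member values kept their sign and side of the threshold, 102 lost a call and 38 gained 1. This tally includes fits that leave a difference unchanged by design and can move only its p-value. They are those without an array of the line outside the comparison and those with the replicate number as a block. The tally is therefore no measure of how stable the values are. Another 78 changed sign, 74 of them not called in either setting. Calls that held throughout numbered 5 of 15 in PF1066R, 8 of 14 in X376R and 5 of 11 between the lines. With arrays centred on their medians and not quantile-normalized, the median of all genes moved to -0.12 in PF1066R, -0.19 in X376R and -0.06 between the resistant lines. It gave 6 members called in PF1066R, 7 between the lines (of 978 genes, 275 higher and 703 lower) and 16 in X376R, where higher calls were 8.46% of all genes called, and 8.82% in PF1066R. There ELOVL5 was -0.014 in PF1066R and TECR -0.63, ME1 -0.60 and HACD3 -0.068 in X376R, or 0.11, -0.44, -0.42 and 0.12 relative to the median of all genes. Centring on the median of the tested genes gave medians of 0.08, 0.10 and 0.03, higher calls of 38.9% in PF1066R and 35.5% between the lines, and 6 members higher and 10 lower in X376R. With array brightness as a covariate, 1252 and 1391 genes were called in PF1066R and X376R, and 8, 8 and 7 members in the 3 comparisons. The cause of these moves was not tested. Leaving out each array in turn gave 12 to 16, 13 to 14 and 7 to 11 members, and 1871 to 2796, 3112 to 3841 and 1618 to 2203 genes. Requiring a signal above background on all 9 arrays gave 14, 14 and 10 of 27 members.

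With the replicate number as a block, 15, 14 and 14 members and 2886, 4167 and 2477 genes were called. The deviations of same-numbered arrays correlated with r of -0.05 to 0.22, over 0.1 in 5 of 9 pairs. The best partner in another line had the same number in 10 of 18 cases. The r was 0.19, 0.22 and 0.14 for replicate 2, 0.03, 0.15 and 0.11 for replicate 3 and -0.05 to 0.00 for replicate 1. No label states that same-numbered arrays were handled together, and this was not tested. Probes near background, such as those of MLXIPL, FADS2 and ACSL5, limit what can be seen of their change.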

Other observations

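Genes of fatty acid oxidation, the route opposite to synthesis, showed no common direction between the resistant lines. Of 23 tested, 3 were higher and 3 lower in X376R than in PF1066R, with a median difference of 0.07. Of the 23, 26.1% were thus called, against 16.1% of all genes. Against Parental, 1 rose and 0 fell in PF1066R, so 4.35% were called, against 18.4% of all genes. In X376R 8 rose and 0 fell, so 34.8% were called, against 28.1% of all genes. With each array centred on its median 1 rose and 1 fell in PF1066R, where 1.56% of all genes were higher and 16.2% lower. In X376R 0 then rose and 7 fell, where 2.82% of all genes were higher and 30.5% lower. ECI2, an enoyl-CoA isomerase, rose 2.34-fold in PF1066R (1.22 ± 0.19 on the log2 scale, adjusted p = 0.000185) and gave 0.19 in X376R. ACAA2, the mitochondrial thiolase, rose 2.13-fold in X376R (1.09 ± 0.17, adjusted p = 9.79e-05) and gave 0.36 in PF1066R. ACAA1, the peroxisomal thiolase, rose by 0.87 and SLC25A20, the carnitine-acylcarnitine carrier, by 0.68 in X376R.

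Of 10 tested genes of fatty acid uptake and binding 2 rose and 1 fell in PF1066R, 0 rose and 2 fell in X376R, and 4 were lower and 0 higher in X376R than in PF1066R. Centred on array medians these counts were 0 and 2, 0 and 3, and 3 and 0. Under the main setting 30%, 20% and 40% of the 10 genes were called, against 18.4%, 28.1% and 16.1% of all genes. SLC27A2, a very long chain acyl-CoA synthetase, changed by -0.39 ± 0.12 in PF1066R and by -1.16 ± 0.12 in X376R (2.24-fold lower, adjusted p = 1.08e-06). SLC27A3 rose by 0.94 ± 0.13 in PF1066R (adjusted p = 6.66e-05) and gave 0.35 in X376R (adjusted p = 0.0512). SLC27A1, a fatty acid transport protein, changed by -0.68 ± 0.11 in X376R. DBI, the acyl-CoA binding protein, rose by 0.45 in PF1066R and was 1.65-fold lower in X376R than in PF1066R (-0.73 ± 0.13).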
